A study of Mus musculus with 4 samples.

Results

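Gap43, Lrrn1, Cbln2, Nexmif, Tafa1 and Grpr are grouped here as neuronal genes, and all of them read higher in KrasD12 than in wild-type mouse lung fibroblasts. The 6 genes were chosen by this very difference, as rows of the array whose platform annotation names exactly 1 of them, out of 19938 genes with such a row. Their KrasD12 against WT values are therefore given as a description, with no test. Each of the 6 had a single row, so no choice between rows was needed.

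The study measured RNA on 4 Affymetrix mouse gene arrays with biotin-labelled total RNA from cultures of lung fibroblasts, grown out of collagenase-digested lungs of mice 3 to 4 weeks old and left untreated. KrasD12 A and B are labelled with the number 493, and WT A and B with 494. The design text writes the KrasD12 allele as K-RasG12D, in mice it calls SKY. The labels do not say whether the number stands for a mouse, a culture or a line. With 1 number per genotype, the effect of the allele and that of the source behind the number cannot be told apart. The labels do not state what separates A from B, so every p-value measures only the spread between these samples, which may be technical. How the allele was switched on in the cells is not given in the sources used here. In bulk RNA, fewer cells of a type and less RNA per cell cannot be told apart.

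In neurons, outgrowing axons carry growth cones, and contacts between axon and target are organised by surface and secreted proteins that bind across the cleft. Gap43 encodes a membrane-bound growth cone protein that binds calmodulin and is phosphorylated by protein kinase C. Nexmif encodes a nuclear protein needed for neurite extension and neuronal migration. Lrrn1 encodes a leucine-rich repeat membrane protein, and Cbln2 a secreted protein of the C1q family that links presynaptic neurexins to delta glutamate receptors. Tafa1 encodes a small secreted chemokine-like protein of the brain. Grpr encodes the receptor of gastrin-releasing peptide, a bombesin-like peptide, and signals through Gq to phospholipase C.

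The values are the deposited log2 expression values. A dim level of 5.15 was set at the 95th percentile of 1205 rows of olfactory and vomeronasal receptor genes, which fibroblasts are not known to use. At or below it a value is not a measured level. Taken per sample, the same percentile was 5.44 and 5.49 in KrasD12 and 5.0 and 4.97 in WT. The columns of the groups did not share 1 scale: the median difference of all genes, KrasD12 minus WT, was 0.26 as deposited and 0.00 after quantile normalization. Differences below are on the deposited log2 values, with the quantile value beside them where it matters. The median gap between A and B over all genes was 0.09 in KrasD12 and 0.08 in WT.

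Of the growth genes, Gap43 read 9.99 and 9.98 in KrasD12 A and B and 6.65 and 6.40 in WT A and B. All 4 values lay above the dim level, so Gap43 was measured in WT fibroblasts as well. The means were 9.99 ± 0.01 and 6.53 ± 0.18 (SD, n = 2 each), a difference of 3.46, or 11-fold, and of 3.31 after quantile normalization. Nexmif read 6.43 and 6.19 in KrasD12 and 3.19 and 3.02 in WT. Its WT values lay far below the dim level, and its KrasD12 mean lay 1.16 above it. The difference was 3.21 (2.89 after quantile normalization), with means of 6.31 ± 0.17 and 3.11 ± 0.12 (SD, n = 2 each).

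Of the surface and synapse genes, Lrrn1 read 7.55 and 7.58 in KrasD12 and 3.97 and 4.14 in WT. It had the widest difference of the 6 as deposited, 3.51 or 11.4-fold, with a WT mean minus dim level of -1.10. After quantile normalization Lrrn1 differed by 3.20, less than Gap43. Cbln2 read 7.97 and 7.89 in KrasD12 against 5.01 and 5.21 in WT, a difference of 2.82 (2.54 quantile). The WT values of Cbln2 straddled the dim level, with a mean of 5.11 ± 0.14 (SD, n = 2). A faint signal and none could not be separated there.

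Of the ligand and receptor genes, Tafa1 read 7.41 and 7.56 in KrasD12 and 4.96 and 4.85 in WT, and Grpr 7.71 and 7.70 in KrasD12 and 5.2 and 5.09 in WT. Groups overlapped for none of the 6 genes, as their choice on this difference fixed. Genes that were not called could lack overlap too. Rlim, picked after its values were seen, read 9.60 and 9.44 in KrasD12 and 9.34 and 9.37 in WT. Tafa1 differed by 2.58, or 5.98-fold, and Grpr by 2.56, or 5.90-fold; quantile normalization left 2.27 and 2.26. The WT values of Tafa1 were below the dim level and those of Grpr lay on either side of it.

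**Figure D1:**
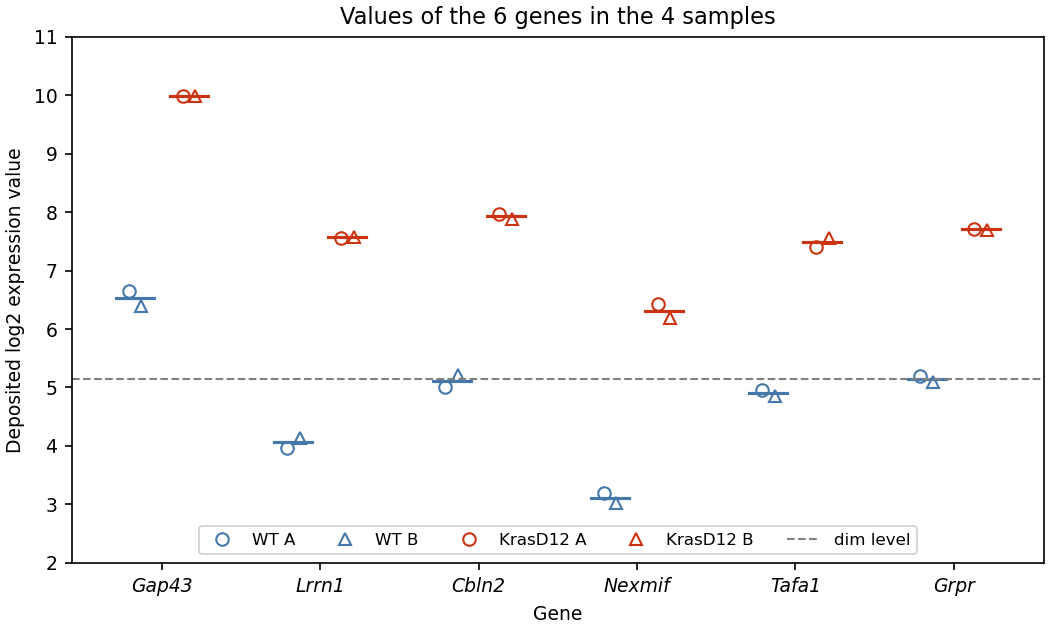
Deposited log2 expression value (vertical axis) of each of the 6 genes (horizontal axis) in the 4 samples; circles are sample A, triangles sample B, blue WT, red KrasD12, bars the group means and the dashed line the dim level of 5.15. All KrasD12 values lie above all WT values of the same gene, as their choice fixed. Gap43 alone has both WT values, 6.65 and 6.40, clear of the dim level.

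The name "switched on" thus does not hold for Gap43, and for Cbln2 and Grpr it cannot be decided. All 6 genes were above the dim level in both KrasD12 samples. In WT, Lrrn1, Nexmif and Tafa1 were below it in both samples, Cbln2 and Grpr stood at it, and Gap43 was above it. Measured against each sample's own receptor percentile, 3 of the 6 genes were above in WT A and 3 in WT B. Where WT was at or below the dim level, the size of the difference is uncertain and Lrrn1 and Gap43 change places between scalings. Genes of like mean as each of the 6 (within 0.5 log2 units) had median differences of 0.17 around Gap43 and 0.32 to 0.40 around the other 5 genes. For the 6 genes, the gaps between A and B were 0.01 to 0.24 in KrasD12 and 0.11 to 0.25 in WT.

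Across all genes, limma 3.58.1 called 22.4% of 19938 higher in KrasD12 and 11.5% lower at an adjusted p under 0.05, where a call had to hold with 1 sign both as deposited and on quantile-normalized data. A rise of at least 2-fold on both scalings was called for 1.23%. All 6 genes are among these 1.23%, which their choice on this contrast fixed, and nothing is read from it. Below, a gene outside the 6 is said to have risen or fallen only where it was called in this way. These calls rest on 2 samples a group. Without WT A or without WT B, limma called 0 genes on the deposited values (9846 and 10022 at an unadjusted p under 0.05, smallest adjusted p of 0.0552 and 0.0530), so every count below goes to 0 there, while 2939 and 3326 genes were called on the quantile values. Without KrasD12 A, 1762 genes rose and 1086 fell, and without KrasD12 B, 1434 and 755.

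The labelled cell type was checked against markers. All 11 fibroblast markers measured were above the dim level in WT and 10 in KrasD12, where Tcf21, a transcription factor of lung mesenchyme, was below it at 4.55 and 4.76 against 6.85 and 6.51 in WT. Tcf21 fell by 2.03 ± 0.14 (limma's moderated SE, n = 2 per group, adjusted p = 0.000630). In all, 2 of the 11 rose and 4 fell, 18.2% and 36.4%, beside 22.4% and 11.5% of all genes. Col1a1 and Pdgfrb fell by 0.60 and 0.50, and Fn1 rose by 0.44 (0.10 after median centring). The other called markers, named after their values were seen, were Thy1, which fell by 0.31, and Pdgfra, which rose by 0.26 but differed by -0.09 after median centring. The mean level of the 11 markers was 10.63 and 10.66 in KrasD12 and 10.94 and 10.90 in WT, with a median difference of -0.21 (-0.03 quantile). Of the 10 Schwann cell and glial markers measured, 1 rose and 0 fell. S100b rose by 0.88 (0.47 quantile), from a WT mean of 4.34, below the dim level. Mbp differed by 0.46 (0.13 quantile) and was not called on both scalings. The mean levels of the list were 5.72 and 5.71 against 5.40 and 5.45, with a median difference of 0.33 (-0.07 quantile). Sox10, the defining transcription factor of that lineage, was picked after its values were seen. It read 6.27 and 6.11 in KrasD12 and 5.94 and 5.77 in WT. Its difference of 0.34 (-0.02 quantile) was not called on both scalings. Of 8 neuroendocrine markers 2 rose, Syp and Ddc (the latter under the dim level in both groups), and 0 fell. Their mean levels were 5.11 and 5.13 against 4.75 and 4.83, with a median difference of 0.19 (-0.18 quantile). Of 7 epithelial markers only Sftpc passed (0.92, 0.52 quantile), with means of 5.27 in KrasD12 and 4.35 in WT. Nkx2-1, with means of 6.11 in KrasD12 and 5.53 in WT, differed by 0.58 (0.21 quantile), not called on both scalings. Among 6 immune markers Lyz2 fell by 1.48 and Cd79a and Adgre1 rose by 1.02 and 0.63, the last pair with all values under the dim level. The growth protocol calls the cultures myofibroblasts, cells known by Acta2, which read 10.43 and 10.22 in KrasD12 and 12.03 and 11.96 in WT. Of 6 pericyte and smooth muscle markers 3 fell, Acta2, Cnn1 and Myh11, by 1.67, 1.65 and 1.56, and Cspg4 rose by 0.76. Of the 5 endothelial and 5 mesothelial markers limma called 0 on both scalings. As deposited, 2 endothelial and 4 mesothelial markers had an unadjusted p under 0.05, and 1 and 2 after quantile normalization. Tek differed by 0.36, Pecam1 by 0.31, Upk3b by 0.57 and Msln by -0.40. The part of these cell types in the levels of the 6 genes was not tested.

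As markers of neurons themselves, 20 pan-neuronal genes were read. In KrasD12 4 rose and 5 fell, 20% and 25%, beside 22.4% and 11.5% of all genes. Elavl4, an RNA-binding protein known to stabilise Gap43 mRNA, rose by 1.57 ± 0.12 (adjusted p = 0.000737; 1.18 quantile), from 3.82 and 4.02 in WT to 5.61 and 5.36. Both WT values of Elavl4 lay below the dim level, and its KrasD12 B value lay below that sample's own receptor percentile of 5.49. Slc17a6, a vesicular glutamate transporter, rose by 1.39 but stayed below the dim level in both groups. Syp, a synaptic vesicle protein, rose by 0.94. Uchl1, a neuronal deubiquitinase, fell by 0.95 ± 0.09 (adjusted p = 0.00121). The neuronal tubulin gene Tubb3, the neuron-specific splicing factor gene Rbfox3 and the dendritic Map2, named here after their values were seen, fell by 0.58, 0.46 and 0.35. Both means of Map2 and the KrasD12 mean of Rbfox3 lay below the dim level. The mean level of the 20 markers was 5.54 in both KrasD12 samples and 5.24 and 5.27 in WT. The list median was 0.41 as deposited and 0.07 after quantile normalization, against 0.26 and 0.00 for all genes. Without KrasD12 A or B, 1 marker rose and 2 fell.

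**Figure D2:**
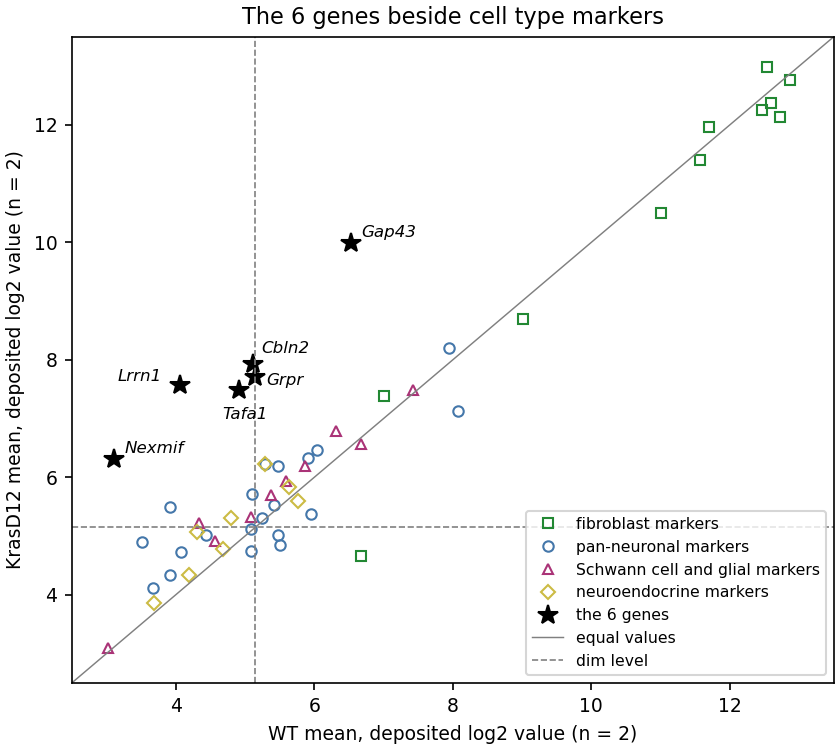
KrasD12 mean against WT mean of deposited log2 values (n = 2 each) for the 6 genes (stars), fibroblast, pan-neuronal, Schwann cell and glial, and neuroendocrine markers; the solid line marks equal values and the dashed lines the dim level of 5.15. The stars stand 2.56 to 3.51 above the line of equal values, as their choice fixed, and the neuronal markers lie on both sides of it.

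Factors that set neuronal identity were mixed with repressor subunits in a list of 20 measured genes, of which 6 rose and 1 fell, 30% and 5.0%, beside 22.4% and 11.5% of all genes. Myt1l, Neurog1 and Neurod2, transcription factors of neurons and their precursors, rose by 0.97, 0.96 and 0.77, with quantile values of 0.58, 0.58 and 0.43. The WT means of Myt1l and Neurog1 lay below the dim level. Isl1, a homeobox factor of motor and sensory neurons, fell by 1.48 ± 0.19 (limma adjusted p = 0.00221), from 6.67 and 6.36 to 5.28 and 4.80. Rest encodes the repressor that keeps neuronal genes silent in other cells, and Rcor1 its corepressor. Both, named after their values were seen, rose: Rest read 9.42 in both KrasD12 samples and 8.89 and 8.94 in WT, a rise of 0.51 ± 0.07 (adjusted p = 0.00244; 0.43 quantile and 0.16 after median centring), and Rcor1 rose by 0.34 (0.25 quantile, but -0.01 after median centring). The list median was 0.37 (0.12 quantile). Without KrasD12 A 3 members rose and 1 fell, and without KrasD12 B 2 rose and 0 fell.

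Growth cone genes related to Gap43 went both ways. Of 20, 7 rose and 7 fell (35% each), beside 22.4% and 11.5% of all genes, and the list median was 0.32 (-0.06 quantile). Elavl4 (above) had the widest rise, followed by Nrgn, a calmodulin-binding protein of the same small family as Gap43, at 0.93 ± 0.07 (adjusted p = 0.000722; 0.55 quantile), with 6.05 and 6.00 in KrasD12 and 5.13 and 5.07 in WT. The WT values of Nrgn lay just below the dim level. Dcx, a microtubule protein of migrating neurons, rose by 0.69 while below the dim level in both groups. Crmp1, a mediator of growth cone collapse, fell by 0.72. Basp1, a membrane protein akin to Gap43 in its role at the cell cortex and named after its values were seen, fell by 0.23. Pcp4, a further small calmodulin-binding protein, likewise picked afterwards, fell by 0.29 with both means under the dim level. With the sample KrasD12 A left out 2 members rose and 3 fell, and with KrasD12 B left out 2 and 2.

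Lrrn1 belongs to a family of 4, whose other members are given in full, having been picked out after their values were seen. Lrrn3 rose by 0.88 ± 0.08 (adjusted p = 0.000952; 0.61 quantile), from 6.59 and 6.63 in WT to 7.55 and 7.42. Lrrn2 differed by 0.06 (-0.21 quantile) and Lrrn4 by 0.27 (-0.15 quantile), neither of them called. The wider list of 32 leucine-rich repeat surface genes, many of them synaptic adhesion proteins, had 9 that rose and 4 that fell, 28.1% and 12.5%, beside 22.4% and 11.5% of all genes. Slitrk6 rose by 1.82 from 3.19 and 3.29 to 4.99 and 5.13, below the dim level in both groups. Lingo2 rose by 1.80 ± 0.09 (adjusted p = 0.000350), from 5.50 and 5.68 to 7.34 and 7.43. The synaptic organiser Lrrtm3 rose by 1.56 and Islr2 by 1.13, from WT means of 4.31 and 4.64, below the dim level. Of the genes that fell, Slitrk3 and Lrfn5, picked after their values were seen, had both means under the dim level. Slitrk5 and Amigo2, picked likewise, had both means above it. The median was 0.34 as deposited and -0.03 after quantile normalization. Without KrasD12 A or B, 6 rose and 1 fell.

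Among the relatives and binding partners of Cbln2 and Tafa1, 7 of 19 rose and 1 fell, 36.8% and 5.26%, beside 22.4% and 11.5% of all genes. Nptx1, a secreted pentraxin that gathers AMPA receptors, rose by 1.55 ± 0.08 (adjusted p = 0.000347; 1.20 quantile), from 5.15 and 5.28 in WT to 6.78 and 6.75 in KrasD12. Cbln3, a cerebellin, rose by 1.14 and the neurexin ligand Nlgn1 by 1.02, each from WT means below the dim level. Grid1, a delta receptor to which cerebellins bind, rose by 0.82 (0.43 quantile) and Tafa3 by 0.82 (0.50 quantile), both named after their values were seen. The WT mean of Grid1 also lay below the dim level. C1ql3, another secreted C1q-family organiser, fell by 1.08 ± 0.09 (adjusted p = 0.000819), from 8.38 and 8.30 to 7.35 and 7.18. Cbln4, Tafa2, Tafa4 and Tafa5, also named after their values were seen, differed by 0.54, 0.21, 0.58 and -0.25 (0.16, -0.18, 0.16 and -0.59 quantile), none called on both scalings. The list median was 0.46 (0.16 quantile). Without KrasD12 A or B, 2 rose and 1 fell.

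For the bombesin system of Grpr, 2 of 10 genes rose and 1 fell, 20% and 10%, near the 22.4% and 11.5% of all genes. The genes that rose encode ligands, Nmb by 0.79 ± 0.06 (adjusted p = 0.000839; 0.40 quantile) and Grp, which encodes the peptide that binds Grpr, by 0.82 ± 0.08 (adjusted p = 0.00135; 0.40 quantile). Grp read 4.94 and 5.08 in KrasD12 and 4.14 and 4.25 in WT, so both groups were under the dim level, and Nmb at 5.56 in both KrasD12 samples was little above it. The receptor relatives Nmbr and Brs3, chosen with their values known, had all their values under the dim level and differed by -0.50 and 0.45, neither called on both scalings. Plcb4, a phospholipase C that Gq activates, fell by 0.78, from 9.03 and 9.04 to 8.18 and 8.33. The G protein genes Gnaq and Gna11, chosen likewise, differed by 0.13 and -0.14, not called on both scalings. The median of the list was 0.32 (0.04 quantile). With KrasD12 A left out 0 rose and 2 fell, and with KrasD12 B left out 1 and 1.

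**Figure D3:**
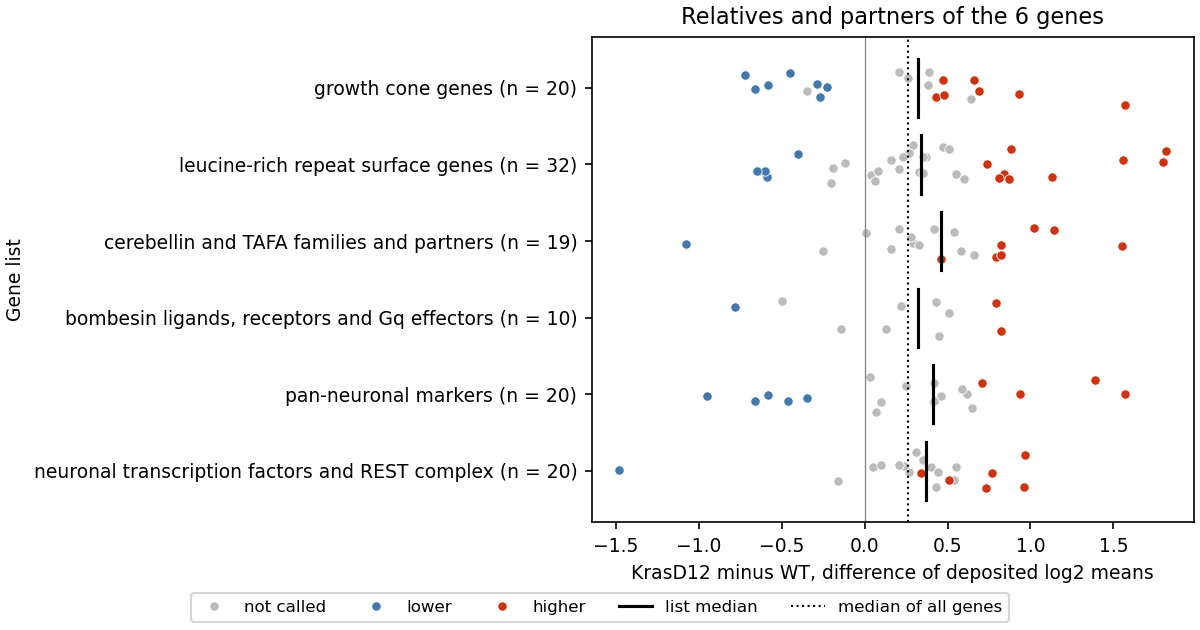
Difference of deposited log2 means, KrasD12 minus WT (horizontal axis), for each measured gene of the 6 lists of relatives, partners, neuronal markers and factors (vertical axis, with the number measured); red and blue points were called higher and lower on both scalings, grey points were not, black bars are list medians and the dotted line the median of all genes, 0.26. Points run from -1.48 (Isl1) to 1.82 (Slitrk6), and every list has genes on both sides of 0.

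The table of mouse promoters held windows for Lrrn1, Nexmif, Tafa1 and Grpr. The 250 bases before the start are shown for 3 of them, since they share a rise in KrasD12 but not base composition or motifs: Tafa1 and Grpr each hold 1 motif match, and Lrrn1 is the window richest in G and C. Sequences are from RefSeq (GRCm38.p6), 5′ to 3′ on the gene's strand, and capitals mark motif matches.
Tafa1, chr6:96112904-96113153 (+ strand): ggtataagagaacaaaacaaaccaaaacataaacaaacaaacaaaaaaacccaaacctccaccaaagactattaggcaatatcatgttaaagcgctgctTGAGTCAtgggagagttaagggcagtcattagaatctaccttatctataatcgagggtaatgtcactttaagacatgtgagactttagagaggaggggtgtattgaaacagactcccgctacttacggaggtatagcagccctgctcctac
Grpr, chrX:163549737-163549986 (- strand): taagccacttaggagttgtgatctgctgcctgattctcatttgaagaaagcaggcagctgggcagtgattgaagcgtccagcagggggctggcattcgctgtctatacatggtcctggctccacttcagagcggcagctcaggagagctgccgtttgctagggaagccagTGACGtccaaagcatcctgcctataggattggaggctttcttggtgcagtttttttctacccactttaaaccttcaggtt
Lrrn1, chr6:107529476-107529725 (+ strand): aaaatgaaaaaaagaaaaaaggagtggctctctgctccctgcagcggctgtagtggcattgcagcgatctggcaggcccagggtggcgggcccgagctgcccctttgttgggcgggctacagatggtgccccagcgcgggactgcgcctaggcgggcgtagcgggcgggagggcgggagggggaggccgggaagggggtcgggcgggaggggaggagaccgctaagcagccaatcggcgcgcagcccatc

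The capitals in Tafa1 are an AP-1 site (TGANTCA) at position -151 from the start, and those in Grpr are the first letters of a cAMP response element (TGACG) at -80. Searched on both strands in these 250 bases, AP-1 letters occur in 6.75% and the TGACG letters in 17.8% of 32851 windows. The ETS core CCGGAA (12% of windows), the TATA box TATAAA (12.4%) and both parts of the REST element, CAGCACC (5.73%) and GGACAGC (5.28%), had no match in the 4 windows, and no 2 matches overlapped. G and C made up 68.0% of the Lrrn1 window, 63.6% of that of Nexmif, 51.6% of Grpr and 40.8% of Tafa1, beside a median of 52.4% over all windows. The Nexmif window (chrX:104201185-104201434, - strand) lies inside the gene's annotated span, which ends at 104201783, so it precedes a start within the gene. Lrrn1 held 20 CpG pairs, Nexmif and Grpr 5 each and Tafa1 4, beside a median of 6. A match is a string of letters, not a shown binding site.

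The 6 genes lie on 4 chromosomes: Lrrn1 and Tafa1 on 6, Gap43 on 16, Cbln2 on 18, and Nexmif and Grpr on X. For each gene the 5 nearest measured genes on either side were read, 60 in all. Of these, 9 rose and 6 fell, 15% and 10%, beside 22.4% and 11.5% of all genes, with a median difference of 0.18 (-0.03 quantile). Grm7, a metabotropic glutamate receptor gene and the fifth gene beyond Lrrn1, rose by 2.12 ± 0.10 (adjusted p = 0.000341; 1.74 quantile), from 4.07 and 3.82 in WT to 6.11 and 6.02. Beside Cbln2, the next gene on one side, Neto1, an auxiliary protein of glutamate receptors, fell by 1.17 ± 0.08, and the docking protein gene Dok6 by 1.39 ± 0.08 (adjusted p = 0.000648 and 0.000494). Cyb5a also fell there (-0.48), whereas Rttn rose by 0.71 (0.37 quantile), Socs6 by 0.46 (0.11 after median centring) and Fbxo15, with both means under the dim level, by 0.79 (0.44 quantile). Near Tafa1, Lrig1, a leucine-rich repeat inhibitor of growth factor receptors, rose by 1.25 and Suclg2 by 0.41 (0.07 after median centring), and Uba3 fell by 0.71. Near Gap43, Zbtb20 rose by 0.55 (0.20 after median centring), and Gm9968, below the dim level in both groups, by 0.65 (0.26 quantile). Near Grpr, Ap1s2 rose by 0.68 and Car5b and Txlng fell by 0.88 and 0.29. Of the 10 neighbours of Nexmif limma called 0 on both scalings, 5 on the deposited values alone and 1 on the quantile values alone (5 and 2 at an unadjusted p under 0.05). Rlim, next to Nexmif and picked after its value was seen, differed by 0.17. Without KrasD12 A, 4 neighbours rose and 6 fell, and without KrasD12 B 3 and 4.

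**Figure D4:**
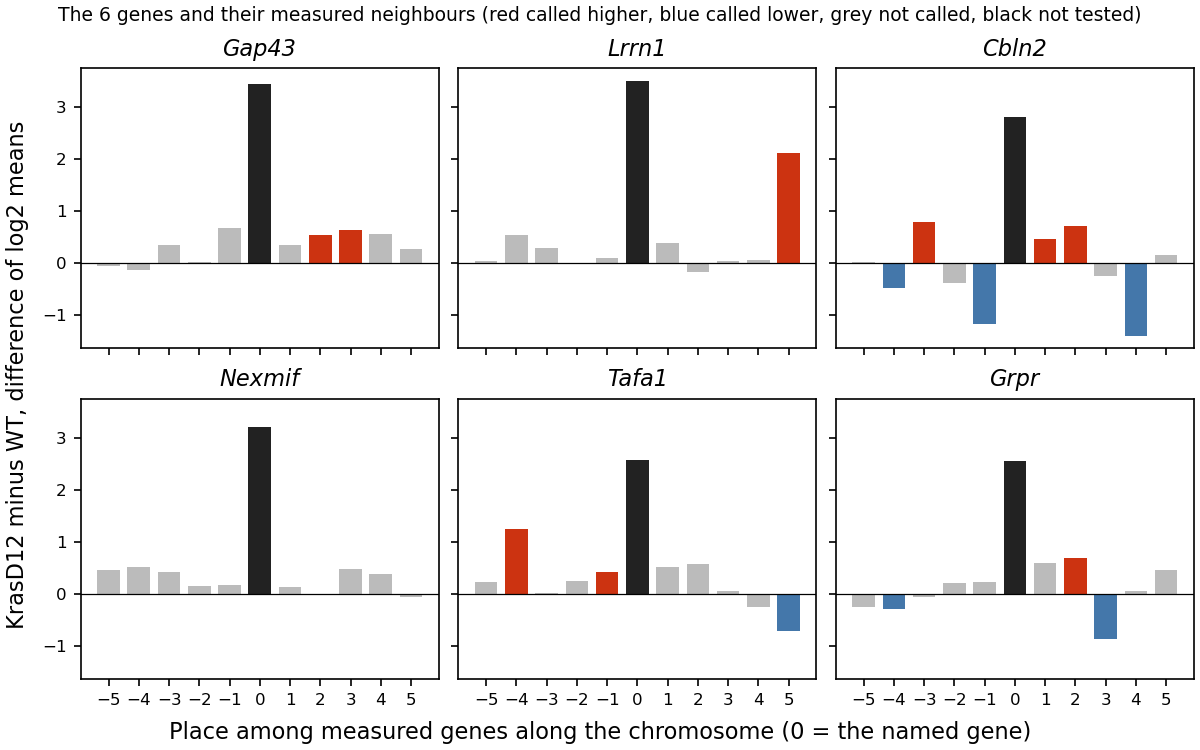
Difference of log2 means, KrasD12 minus WT (vertical axis), of each of the 6 genes (black, place 0, not tested) and of its 5 measured neighbours on either side (horizontal axis, place along the chromosome); red bars were called higher, blue lower and grey not called on both scalings. The black bars are the differences that chose the genes; among the neighbours Grm7, 5 places beyond Lrrn1, has the tallest bar at 2.12.

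Since Nexmif and Grpr are on the X chromosome, genes that tell the sexes apart were read in both groups. Xist, the RNA of the inactive X in females, read 4.03 and 4.08 in KrasD12 and 4.36 and 4.33 in WT, below the dim level throughout. The Y-linked Eif2s3y read 8.89 and 8.73 in KrasD12 and 9.04 and 8.99 in WT. Kdm5d and Uty, also Y-linked, rose by 0.79 and 0.55. Both groups thus carried Y-linked transcripts and no Xist above the dim level.

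Finally, the genes whose profile was most like that of each of the 6 were found by Euclidean distance over the 4 samples, after each gene was centred on its own mean. Cdh4, a cadherin, lay nearest to Gap43 (distance 0.11), with 10.01 in both KrasD12 samples and 6.54 and 6.36 in WT. Abca8a, a lipid transporter gene, lay nearest to Lrrn1 (0.16) and Nexmif (0.29). The lipase gene Pla2g7 lay nearest to Cbln2 (0.16), and Etv1, an ETS-family transcription factor, to Tafa1 (0.22). The row of the olfactory receptor pseudogene Olfr1372-ps1 lay nearest to Grpr (0.14), at 7.48 and 7.35 in KrasD12 and 5.02 and 4.90 in WT. The other near genes were Trim12a for Lrrn1 and Gap43, the kainate receptor gene Grik1 for Cbln2 and Nexmif, the WNT antagonist Dkk2 for Cbln2 and Tafa1, and Mstn, a muscle growth inhibitor, for Grpr. Genes named above recurred: Olfr1372-ps1 for Tafa1 (0.23), Etv1 for Grpr (0.2), Abca8a for Gap43 (0.19) and Cdh4 for Lrrn1 (0.25) and Nexmif (0.39). Among themselves, Tafa1 and Grpr were closest (0.11) and Lrrn1 and Grpr farthest apart (0.97). With 2 groups of 2 samples, such a distance mostly reads the size of the difference.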

How the data were processed

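RNA of 4 samples was read on Affymetrix mouse gene arrays. The deposited values are log2 expression values, read as such from the values themselves (2.28 to 14.95). Per the submitters' processing notes, the authors used the Transcriptome Analysis Console; the sources used here give no version, background correction or normalization. Of 28944 rows, the platform annotation gives 21789 exactly 1 symbol, 1621 several and 5534 none; 21698 of the first matched the mouse gene table of GRCm38.p6, used for names, chromosomes and gene order. For 999 genes with several rows the row with the highest mean was kept.

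All 19938 genes were tested with limma 3.58.1 (lmFit and eBayes, group as the only term, two-sided, R 4.3.3) with Benjamini-Hochberg adjustment at 0.05, as deposited and again after quantile normalization of all rows; a call needs both with 1 sign. The number of arrays limits the precision, with 2 residual degrees of freedom. The fit was tested on simulated data. Tables and plots used pandas 2.3.3 and matplotlib 3.10.9. Listed genes without a row are not analysed here. Named genes are the 6, up to 4 called genes per list with the widest differences (or the 2 widest where fewer than 2 were called), every called neighbour, the 3 nearest profiles per gene among genes with a group above the dim level and no predicted genes, and sex-linked genes; genes named outside this rule are marked in the text as chosen after their values were seen. Members, lists and motifs were chosen with earlier results of these data known. Alternatives were the scalings, the replicate letter as a block, a trend in eBayes, leaving out dim genes, the mean of a gene's rows and each sample left out.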

Additional observations from a re-analysis of the deposited data

How the results depend on the processing

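As their choice on wide differences fixed, no difference of the 6 genes changed sign under any scaling or with any sample left out. Each was narrower after quantile normalization, median centring and cyclic loess: 3.31, 3.12 and 3.30 for Gap43, 3.20, 3.17 and 3.12 for Lrrn1, 2.54, 2.48 and 2.49 for Cbln2, 2.89, 2.86 and 2.82 for Nexmif, 2.27, 2.24 and 2.22 for Tafa1, and 2.26, 2.22 and 2.23 for Grpr. With 1 sample left out they ran from 3.34 to 3.59, 3.43 to 3.60, 2.72 to 2.92, 3.09 to 3.33, 2.51 to 2.66 and 2.51 to 2.62 in the same order.

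Counts of called genes depended on the scaling. The cause of each shift was not tested. On the deposited values alone 9991 genes were higher, and 18, 14, 6, 12, 12 and 26 of the leucine-rich repeat, cerebellin and TAFA, bombesin, pan-neuronal, transcription factor and neighbour lists. On the quantile values alone 4861 genes were lower, and 8, 3, 2, 3 and 16 of the leucine-rich repeat, cerebellin and TAFA, bombesin, transcription factor and neighbour lists. Median centring alone gave 6657 lower, 10, 3, 3, 3 and 25 in those lists, and 4 growth cone genes higher. The filter on dim genes left 1 bombesin gene higher, and a trend in eBayes gave 2 lower. With 1 sample left out, genes called higher ran from 0 to 1762 and lower from 0 to 1086. In the lists, higher and lower counts then ran from 0 to 2 and 0 to 3 (growth cone), 0 to 6 and 0 to 1 (leucine-rich repeat), 0 to 2 and 0 to 1 (cerebellin and TAFA), 0 to 1 and 0 to 2 (bombesin), 0 to 1 and 0 to 2 (pan-neuronal), 0 to 3 and 0 to 1 (transcription factors) and 0 to 4 and 0 to 6 (neighbours).

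With the replicate letter as a block, 3 growth cone genes and 3 pan-neuronal markers were lower in place of 7 and 5; no other count above moved by over 1.5 times. Deviations of samples with the same letter correlated at 0.013 over genes, so no shift common to a letter was seen across genes. The labels do not state what the letters stand for. With a single sample per letter in each group, this correlation cannot decide whether samples with the same letter were handled alike. Values at or below the dim level of 5.15 limit what can be said of WT.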

Other observations

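Of 19938 genes, 75 had a WT mean below and a KrasD12 mean above the dim level and differed by at least 2-fold on both scalings, Gap43 being the member not among them. The genes below were picked from these 75 after their values were seen. Among glutamate receptor genes, Grik1 differed by 2.90, Grm7 by 2.12, Grik2 by 2.07 and Grm8 by 1.73. The share of all measured glutamate receptor genes that this makes was not counted, so no theme is read from it. Grm8 read 5.14 and 5.48 in KrasD12 A and B, below the receptor percentile of each of those samples. The potassium channel gene Kcnb2 differed by 1.5, the protocadherin gene Pcdh20 by 1.59 and the polysialic acid synthase gene St8sia4 by 2.28. Others are better known from other tissues: Hhip, an inhibitor of hedgehog signalling, differed by 2.71, Mstn by 2.49, and the cytokine gene Il16 by 2.22.

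Rows named for olfactory receptor genes were among them too: Olfr1372-ps1 differed by 2.46, Olfr316 by 1.63, Olfr1384 by 1.44 and Olfr1383 by 1.42.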
